A study of Hydra vulgaris with 12 samples.

Results

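The late regenerate of Hydra was described by setting tissue taken 48 h after bisection against tissue taken at bisection (0 h), across 14283 of the 17353 transcripts measured. A transcript was included when it reached at least 1 RPKM (a read number relative to the length of the transcript and the size of the library) in at least 2 of the 12 libraries of the time course. The included transcript nearest the limit had 1.001 RPKM in its second highest library, and the nearest excluded transcript had 0.9998 RPKM. In their second highest library 652 included transcripts had under 2 RPKM and 504 excluded transcripts had at least 0.5 RPKM, and 1049 of the 3070 excluded transcripts were below 0.001 RPKM in all 12 libraries.

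Both groups were pools of Hydra magnipapillata strain 105, each of 50 to 100 asexual animals with a young bud, starved for 1 day. The 48 h animals were cut at the border between the uppermost trunk region, R1, and the region below it, R2, regenerated for 48 h, and gave their R2 and R3 tissue. The 0 h animals were cut at the same border and gave the same tissue with no time to regenerate. Each group had 2 libraries, and the 8 libraries of 2, 4, 6 and 12 h entered through the shared estimate of the spread and where they are named below. No uncut animals kept for 48 h are among the samples, so effects of the cut and of the time kept, feeding included, cannot be told apart.

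Hydra is a freshwater cnidarian polyp that rebuilds a complete head from its body column. A group of cells at the tip of the head, the head organizer, patterns the body axis and secretes Wnt ligands, which act on receiving cells through β-catenin. After decapitation Wnt signalling starts again at the wound, and a new hypostome, the cone around the mouth, and a ring of tentacles form there. The table paired 1 identifier with a gene name, Wnt3, so the other transcripts are given by RefSeq identifier, and markers of Hydra cell types could not be used to check the tissue.

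The libraries of both groups were less alike than those of most other times. The SD of the log2 difference between the 2 libraries of a time was 1.02 at 48 h and 0.73 at 0 h, and 0.48, 0.42, 0.46 and 0.76 at 2, 4, 6 and 12 h. Replicate 2 held more near-zero values in both groups. At 48 h, 783 tested transcripts were below 0.001 RPKM in replicate 2 with at least 1 RPKM in replicate 1, and 134 showed the reverse. At 0 h these numbers were 478 and 34. At least 1 RPKM was reached by 13172 and 12421 transcripts in the 48 h libraries, against 13630 and 13153 in the 0 h libraries. The number of reads behind a value is unknown, and the labels do not say whether replicate pools came from separate days. The p-values rest on a spread estimated over the replicate pools of all times, which may be partly technical. The 48 h and 0 h replicates were further apart than those of 2, 4 and 6 h. This shared spread can therefore be too small for 48 h against 0 h, and p-values can be too low.

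At 48 h, 755 transcripts had risen relative to 0 h, or 5.29% of those tested, and 2443 had fallen, or 17.1%. A transcript was called when its limma p, adjusted by the Benjamini-Hochberg method over all tested transcripts, was below 0.05 and it differed by at least 1 on the log2 scale. For each of the 3198 called transcripts (22.4% of those tested) the 48 h libraries did not overlap the 0 h libraries. Among all tested transcripts both 48 h libraries lay above both 0 h libraries in 16.2%, and below both in 46.8%. In whole tissue, fewer cells of a type and less RNA per cell cannot be told apart.

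The surplus of falls depended on the scaling of the libraries. The median log2 fold change of all tested transcripts was −0.39 on the deposited RPKM and −0.05 after median-ratio scaling, which divides each library by the median of its ratios to the geometric mean of all libraries. With that scaling 1295 transcripts rose (9.07%) and 1216 fell (8.51%), so the share of rises among the calls was 51.6%, against 23.6% on the deposited scale. The ratios were taken over transcripts with at least 1 RPKM in all 12 libraries. This scaling treats the typical transcript as unchanged, so a median near 0 is largely built in and a more even split is favoured. It cannot show which scale is right. Under both scalings 753 of the 755 rises were called, but 1216 of the 2443 falls. Log2 fold changes with median-ratio scaling are therefore given beside those on the deposited scale.

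How many transcripts passed also depended on where the spread was taken from. When each of the 12 libraries was left out in turn, 378 rises and 1203 falls were called every time. A limma fit of only the 4 libraries of 48 h and 0 h called 146 rises (1.02%) and 377 falls (2.64%), of which 141 and 373 were among the calls above. In that fit 706 transcripts at least 2-fold higher and 2209 at least 2-fold lower had an unadjusted limma p below 0.05. Without adjustment over all tested transcripts, some can pass with no true change, so these 2 numbers are not counts of calls. The calls made with median-ratio scaling, without any 1 library and in the fit of 4 libraries numbered 128 rises and 286 falls. The fit of 4 libraries with no variance trend, chosen after seeing the data, called 2 rises and 6 falls, and of the 12 transcripts named below 9 lost their call in it. The other 3 were XM_004210825.1, XM_004206511.1 and XM_004212948.1.

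**Figure D1:**
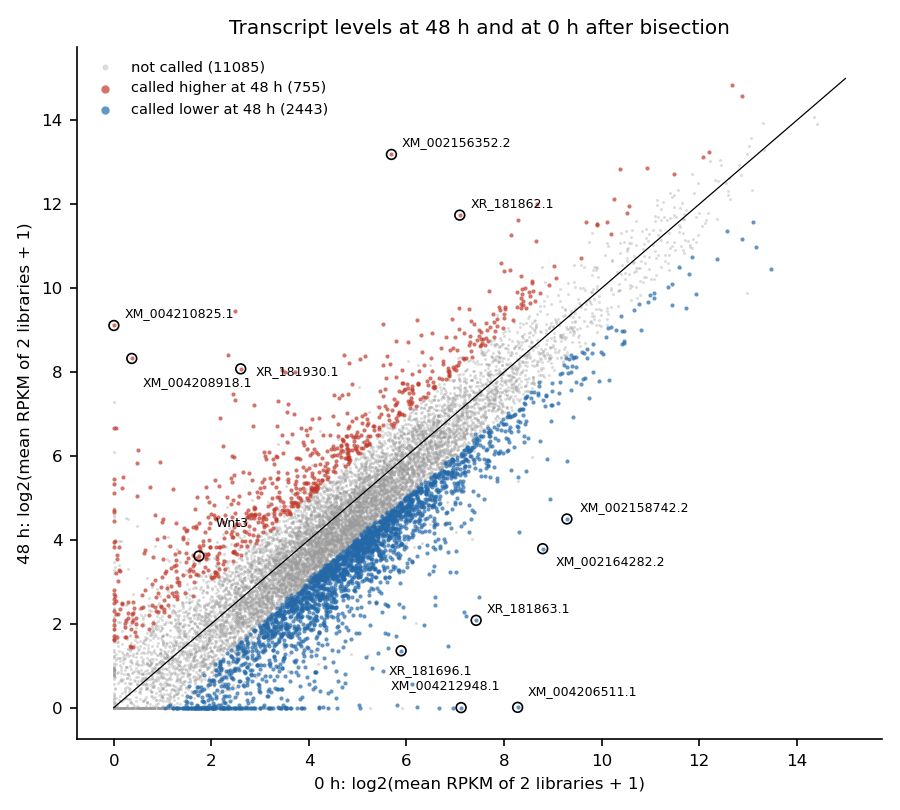
Mean level of each tested transcript at 48 h (vertical axis) and at 0 h (horizontal axis), as log2(mean RPKM of 2 libraries + 1), with named transcripts circled. The 755 transcripts called higher lie above the diagonal of equal level and the 2443 called lower lie below it, and XM_002156352.2 stands apart at the upper edge.

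Wnt3 (NM_001287363.1), the secreted Wnt ligand of the head organizer, stood at 12.4 and 10.1 RPKM in the 48 h libraries, against 1.98 and 2.72 RPKM in the 0 h libraries. Both 48 h libraries were above both 0 h libraries, and the ratio of the means was 4.78. Wnt3 rose by 1.87 on the log2(RPKM + 1) scale (SE 0.27, limma adjusted p = 0.00141), and by 2.17 with median-ratio scaling. In the fit of only the 4 libraries its adjusted p was 0.0640, within a range of 8.08e-04 to 0.0773 over 24 alternatives. From 2 h to 12 h, in libraries outside this comparison, its level changed by 0.80 on the log2 scale (SE 0.27), which did not pass (limma adjusted p = 0.0698). A list of Wnt signalling and head patterning genes was drawn up, but Wnt3 was the single member that could be found by name. Other members may be among the transcripts without a gene name, so no count over the pathway is given.

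The 2 largest rises and the 2 largest falls were between near absence and a high level. XM_004210825.1 had 445 and 659 RPKM at 48 h, against less than 0.001 RPKM in both 0 h libraries (limma log2 fold change 9.08, SE 0.35, adjusted p = 4.63e-06). It was below 0.001 RPKM in both 2 h libraries as well and had at least 381 RPKM in each of the 4, 6 and 12 h libraries. Its highest values, 2062 and 1103 RPKM, were at 12 h, above those at 48 h. XM_004208918.1 had 405 and 234 RPKM at 48 h, against 0.149 and 0.431 RPKM at 0 h (limma log2 fold change 7.91, SE 1.66, adjusted p = 0.00696). Its libraries were far apart at the times between, with 1.61 and 45.7 RPKM at 4 h, a value listed at 0 and 25.7 RPKM at 6 h, and 71.0 and 8.11 RPKM at 12 h. Its call was lost with weights per library (adjusted p = 0.106, the top of a range from 0.0038 over 25 alternatives).

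Among the falls, XM_004206511.1 stood below 0.001 RPKM and at 0.00913 RPKM in the 48 h libraries, against 320 and 299 RPKM in the 0 h libraries (limma log2 fold change −8.27, SE 0.23, adjusted p = 6.43e-07). The second, XM_004212948.1, was below 0.001 RPKM in both 48 h libraries, against 140 and 137 RPKM at 0 h (limma log2 fold change −7.12, SE 0.57, adjusted p = 2.2e-04). Both had intermediate levels at 2 h, with 63.9 and 52.3 RPKM for XM_004206511.1 and 40.9 and 80.5 RPKM for XM_004212948.1. From 4 h on, all values of both were below 0.01 RPKM except 3.04 RPKM of XM_004212948.1 in 12 h replicate 2. With median-ratio scaling the log2 fold changes of these 4 transcripts were 9.22, 8.10, −8.02 and −6.87, in the order given. A fold on the log2(RPKM + 1) scale understates changes from or to near 0. Values of 3 of these transcripts were above 0 but extremely small. Examples are 3.52e-19 RPKM for XM_004210825.1 (0 h replicate 2), 4.04e-18 RPKM for XM_004206511.1 (4 h replicate 1) and 8.61e-14 RPKM for XM_004212948.1 (48 h replicate 1). How reads were shared between similar transcripts was not tested, so the near absence of these 3 is uncertain.

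Transcripts present at both ends showed changes of level. A mean of at least 10 RPKM at 48 h and at 0 h was found for 413 of the rises and 1131 of the falls. The share of all tested transcripts with such means is not given here, so these counts are a description only. XM_002156352.2 had 10250 and 8419 RPKM at 48 h, against 61.9 and 39.5 RPKM at 0 h, a ratio of means of 184 (limma log2 fold change 7.52, SE 0.87, adjusted p = 6.42e-04). It ranked 11 by mean level among the tested transcripts at 48 h and 3725 at 0 h, and took up 0.770% and 0.601% of the RPKM total at 48 h, against 0.00443% and 0.00283% at 0 h. At 2 h it stood at 47.9 and 29.1 RPKM, at 4 h at 320 and 1601 RPKM, at 6 h at 326 and 1336 RPKM and at 12 h at 3049 and 909 RPKM, so the libraries of 4, 6 and 12 h were each more than 3-fold apart.

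The predicted non-coding transcript XR_181862.1 had 3811 and 3033 RPKM at 48 h, against 161 and 109 RPKM at 0 h (limma log2 fold change 4.67, SE 0.54, adjusted p = 6.36e-04). The ratio of its means was 25.3. Its 8 other values, from 2 to 12 h, were all below those of 48 h and ran from 161 to 826 RPKM.

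XM_002164282.2 and XM_002158742.2 were the largest falls among transcripts present at both ends. XM_002164282.2 had 11.8 and 13.9 RPKM at 48 h, against 319 and 565 RPKM at 0 h (limma log2 fold change −4.95, SE 0.53, adjusted p = 4.89e-04). XM_002158742.2 had 23.5 and 19.7 RPKM at 48 h, against 469 and 781 RPKM at 0 h (limma log2 fold change −4.75, SE 0.57, adjusted p = 7.13e-04). Both had their lowest values at 48 h. At 4 h and 6 h both were below their 0 h values, at 80.7 to 146 RPKM (XM_002164282.2) and 178 to 328 RPKM (XM_002158742.2). At 12 h they had 490 and 293 RPKM (XM_002164282.2) and 931 and 585 RPKM (XM_002158742.2). Both had their highest value, 1081 and 1547 RPKM, in 2 h replicate 1, against 330 and 384 RPKM in 2 h replicate 2. With median-ratio scaling the log2 fold changes at 48 h were 7.90 for XM_002156352.2, 5.05 for XR_181862.1, −4.58 for XM_002164282.2 and −4.37 for XM_002158742.2.

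**Figure D2:**
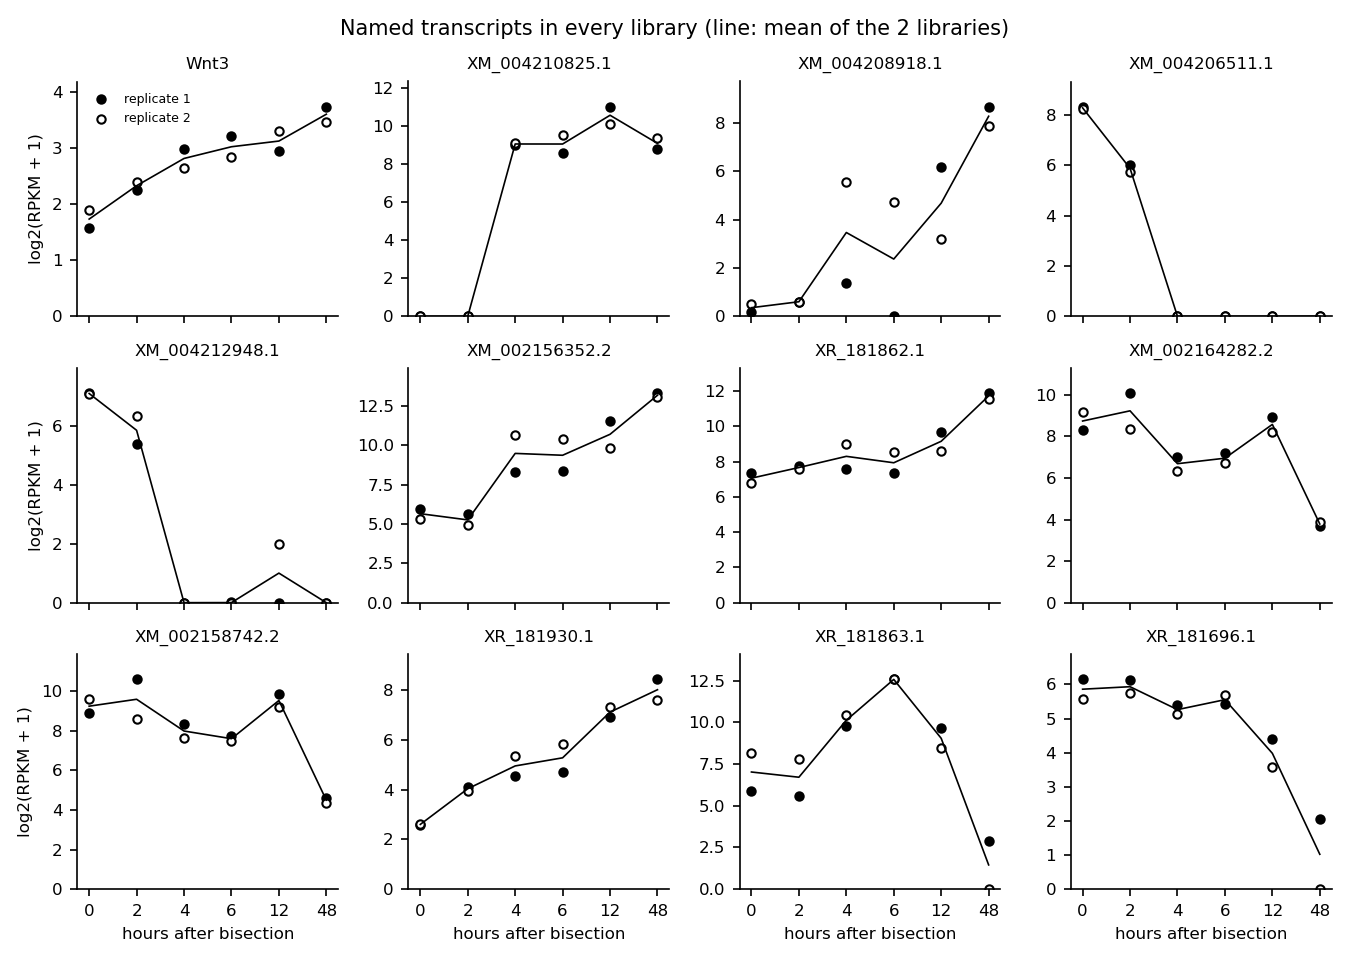
Level of the 12 named transcripts, as log2(RPKM + 1), in each library against time after bisection, with replicate 1 filled, replicate 2 open and the line through the mean of the 2 libraries. XM_002164282.2 and XM_002158742.2 are lower at 4 h and 6 h than at 0 h, higher again at 12 h and lowest at 48 h. Wnt3 and XR_181930.1 have their highest values at 48 h.

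Predicted non-coding transcripts, those with the RefSeq prefix XR, changed in both directions. Of 330 tested XR transcripts 46 rose (13.9%) and 42 fell (12.7%), beside 5.29% and 17.1% of all tested transcripts. The XR transcripts had a median mean level of 56.4 RPKM, against 18.0 RPKM for the 13952 tested predicted mRNAs. In the highest of 4 level classes of equal size, 17.6% of 170 XR transcripts and 7.12% of 3401 mRNAs rose, and 11.2% and 12.8% fell. With median-ratio scaling 68 XR transcripts rose (20.6%) and 27 fell (8.18%), beside 9.07% and 8.51% of all tested transcripts, so the lower share of falls among XR transcripts was seen on the deposited scale and nearly disappeared with scaling.

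XR_181930.1 had 345 and 193 RPKM at 48 h, against 5.01 and 5.12 RPKM at 0 h (limma log2 fold change 5.42, SE 0.42, adjusted p = 1.87e-04). Its values lay between these at all 4 times between, from 14.4 RPKM in 2 h replicate 2 to 160 RPKM in 12 h replicate 2. XR_181863.1 had 6.46 RPKM in 48 h replicate 1 and is listed at 0 in replicate 2, against 58.1 and 284 RPKM at 0 h (limma log2 fold change −5.57, SE 1.07, adjusted p = 0.00476). It had reached 6100 and 6091 RPKM at 6 h. XR_181696.1 had 3.12 RPKM in 48 h replicate 1 and is listed at 0 in replicate 2, against 70.0 and 46.6 RPKM at 0 h (limma log2 fold change −4.84, SE 0.57, adjusted p = 6.63e-04). In the fit of only the 4 libraries XR_181863.1 and XR_181696.1 did not pass, with adjusted p of 0.0814 and 0.0547, within ranges of 0.00194 to 0.108 and 9.59e-05 to 0.0800 over 25 alternatives.

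Most called changes were moderate. The median log2 fold change was 1.59 over the rises and −1.48 over the falls, or 1.92 and −1.14 for the same transcripts with median-ratio scaling. A log2 fold change of at least 2 in size was reached by 236 rises and 540 falls, of at least 3 by 80 and 136, and of at least 5 by 14 and 11. The median of the mean levels of the rises was 45.5 RPKM at 48 h and 12.5 RPKM at 0 h, and that of the falls 8.89 RPKM at 48 h and 28.5 RPKM at 0 h. Among the falls, 138 were below 0.001 RPKM in 48 h replicate 2 with at least 1 RPKM in 48 h replicate 1, and 4 showed the reverse.

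As a description of the chosen transcripts, the rises took up 17.7% and 18.4% of the RPKM total at 48 h, against 5.18% and 5.23% at 0 h. The falls took up 6.14% and 5.90% at 48 h, against 17.3% and 18.0% at 0 h. A mean of at least 1000 RPKM was found for 33 of the rises at 48 h and for 12 at 0 h, and for 11 of the falls at 48 h and 34 at 0 h.

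Few of the called transcripts went on or off. Of the rises, 74 had at least 1 RPKM in both 48 h libraries and less than 1 RPKM in both 0 h libraries, with a median mean level of 4.66 RPKM at 48 h. Of the falls, 238 had less than 1 RPKM in both 48 h libraries and at least 1 RPKM in both 0 h libraries, where their median mean level was 3.97 RPKM. The share of all tested transcripts that crossed 1 RPKM in these ways is not given here. The levels at 12 h and 2 h did not enter the difference between 48 h and 0 h, although all 12 libraries entered the spread behind the calls and the filter. Of the 74 rises 31 (41.9%) had at least 1 RPKM in both 12 h libraries, and 16 (21.6%) in both 2 h libraries. Of the 238 falls 79 (33.2%) had at least 1 RPKM in both 12 h libraries and 171 (71.8%) in both 2 h libraries. Over all tested transcripts these shares were 88.0% at 12 h and 92.6% at 2 h. All tested transcripts had higher median mean levels, 15.5 RPKM at 48 h and 20.6 RPKM at 0 h, so the shares do not compare transcripts of like level. Transcripts included through 1 end alone had little room not to differ: 22 reached 1 RPKM in the 48 h libraries alone, of which 19 were called higher, and 20 in the 0 h libraries alone, of which 16 were called lower.

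The share of calls varied with level, taken as the mean log2(RPKM + 1) over the 12 libraries and given back in RPKM. The tested transcripts were cut into 4 classes of equal size by that level. In the highest class, at 45.3 RPKM and above, 7.62% of 3571 transcripts rose and 12.7% fell. In the 3 lower classes 4.20% to 4.82% rose and 15.5% to 20.4% fell. With median-ratio scaling 14.7% rose and 5.91% fell in the highest class, and 5.74% to 8.26% rose and 8.82% to 10.2% fell in the lower classes. The balance in the highest class therefore turned with the scaling. The SD of the log2 difference between the 48 h libraries was 1.28 in the lowest class and 0.63 in the highest, against 1.04 and 0.44 between the 0 h libraries.

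**Figure D3:**
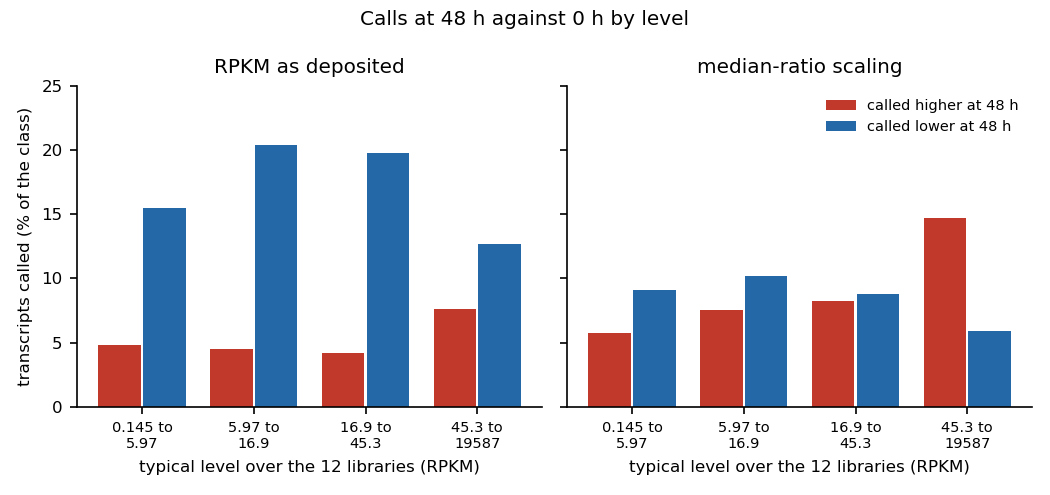
Percentage of tested transcripts called higher (red) or lower (blue) at 48 h than at 0 h, in 4 classes of equal size by level over the 12 libraries, on RPKM as deposited (left) and after median-ratio scaling (right). In the highest class 7.62% were called higher and 12.7% lower as deposited, and 14.7% and 5.91% after scaling.

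Levels at the times between were examined with a contrast that shares no library with 48 h against 0 h, that of 12 h against 2 h, although all 12 libraries give the spread of both. Of the 755 transcripts that rose at 48 h, 199 (26.4%) also rose from 2 h to 12 h and 14 (1.85%) fell, beside 4.07% and 6.58% of all tested transcripts. Their median log2 fold change at 12 h over 2 h was 0.67, against −0.21 for all tested transcripts. Of the 2443 that fell at 48 h, 425 (17.4%) fell from 2 h to 12 h and 23 (0.941%) rose, and their median was −0.62. With median-ratio scaling the medians were 0.70 for the 1295 rises, −0.51 for the 1216 falls and −0.04 for all tested transcripts.

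**Figure D4:**
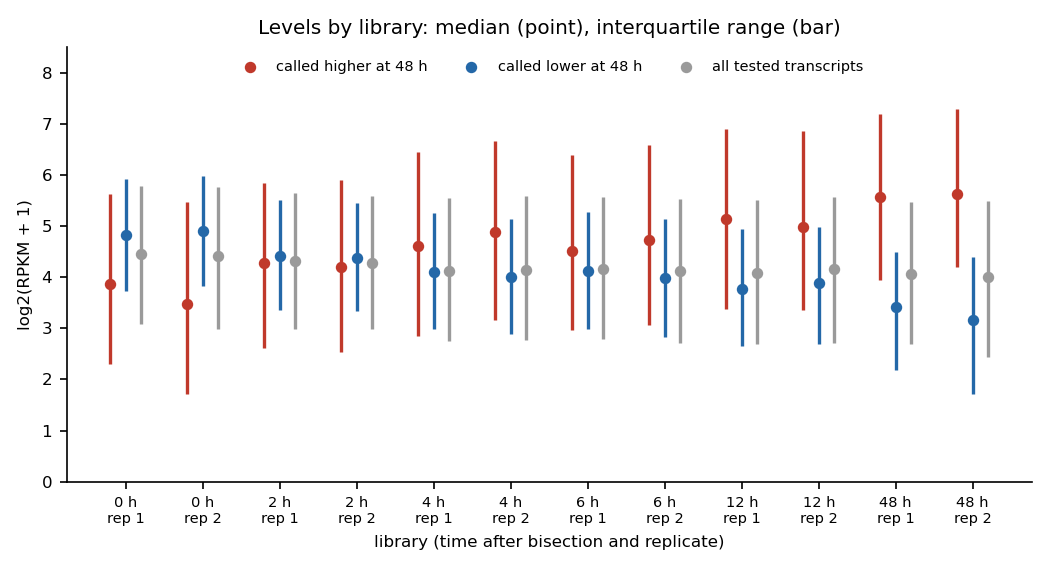
Level of the transcripts called higher (red) or lower (blue) at 48 h and of all tested transcripts (grey) in each library, as log2(RPKM + 1), with the median as a point and the interquartile range as a bar. The median of those called higher is 3.86 and 3.48 in the 0 h libraries, which helped to choose them, 4.27 and 4.20 at 2 h, 5.14 and 4.97 at 12 h, and 5.56 and 5.62 at 48 h.

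Of the named transcripts, XM_004210825.1, XM_002156352.2 and XR_181930.1 also rose from 2 h to 12 h, by 10.56, 5.44 and 3.08 on the log2 scale (limma adjusted p = 3.55e-06, 0.0045 and 0.00224). XM_004206511.1, XM_004212948.1 and XR_181696.1 changed by −5.88, −4.86 and −1.95 and so fell (limma adjusted p = 6.86e-06, 0.00136 and 0.0421). Wnt3 and the other 5 did not pass. Among these XM_002158742.2 had a log2 fold change of −0.06, which was 0.13 with median-ratio scaling, and XR_181863.1 had 2.33 (SE 1.07, limma adjusted p = 0.161).

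Single pairs of libraries showed how far the change recurred in libraries that had no part in choosing the transcripts beyond the filter on low values. In the pair of replicate 1 libraries 1074 transcripts were at least 2-fold higher at 48 h than at 0 h on the log2(RPKM + 1) scale. Of these, 569 (53.0%) were at least 2-fold higher in the pair of replicate 2 libraries, beside 10.6% of all tested transcripts, and the median log2 difference of the 1074 was 1.45 in the first pair and 1.11 in the second. Chosen in the pair of replicate 2 libraries, 1519 transcripts were at least 2-fold higher, and the same 569 (37.5%) were so in the other pair, beside 7.52% of all.

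For lower levels, 3112 transcripts were at least 2-fold lower at 48 h in the replicate 1 pair, and 1699 of them (54.6%) in the replicate 2 pair, beside 26% of all tested transcripts. Of the 3717 at least 2-fold lower in the replicate 2 pair, those 1699 made up 45.7%, beside 21.8% of all in the replicate 1 pair. With median-ratio scaling the shares for lower levels were 50.5% and 34.8%, beside 18.3% and 12.6% of all. Tested transcripts below 0.001 RPKM in replicate 2 of both groups numbered 491, against 81 in replicate 1 of both groups.

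**Figure D5:**
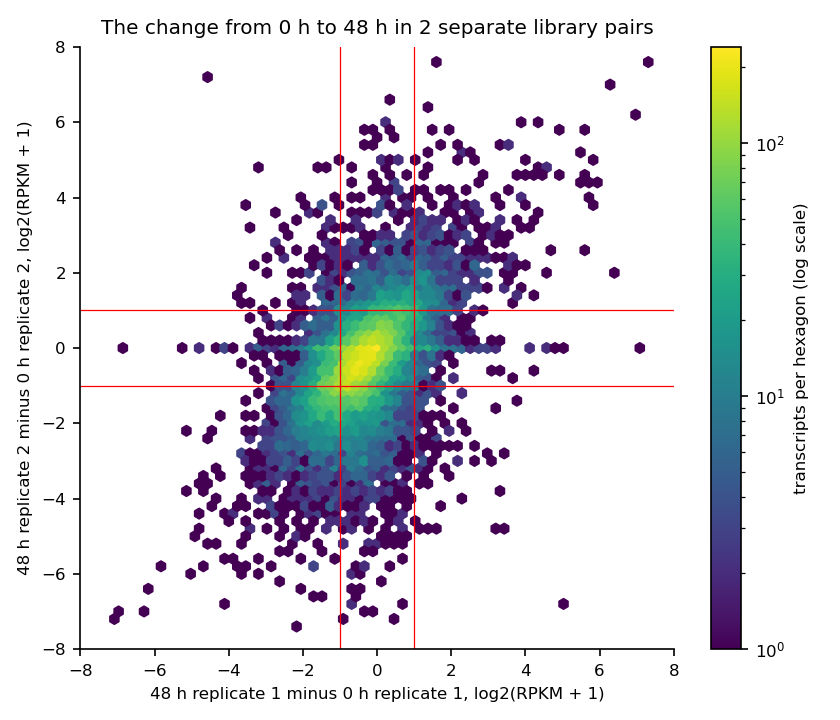
Log2 difference between 48 h and 0 h for each tested transcript in the replicate 2 libraries (vertical axis) and in the replicate 1 libraries (horizontal axis), on the log2(RPKM + 1) scale, coloured by the number of transcripts per hexagon, with red lines at a 2-fold difference. The corner at the upper right holds 569 transcripts and that at the lower left 1699, and the row at 0 on the vertical axis includes the 491 transcripts near 0 RPKM in both replicate 2 libraries.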

How the data were processed

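The deposited table holds RPKM values computed by the authors, per the file headers 1 column for each of the 12 libraries. RNA with integrity numbers above 9.0 went through 2 rounds of poly(A) selection and gave strand-specific libraries read as 50 bp single ends, per the labels' protocols. The submitters' processing notes name Bowtie 0.12.8. The build, the assignment of reads to transcripts and filters were not given in the sources used here. No read numbers are in the table, so depth is unknown and no counting interval is given. Many values lie between 0 and 0.001 RPKM. How reads of similar transcripts were assigned was not tested, so values of such transcripts are uncertain.

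Log2(RPKM + 1) values of 14283 transcripts were fitted in limma 3.58.1 (R 4.3.3) with 1 mean per time over all 12 libraries and a variance prior that follows the mean (6 residual degrees of freedom). All tests are two-sided. The procedure was tested on simulated data with the same spread per transcript at every time, so unequal spread between times was not covered. Alternatives were other pseudocounts, filters, scalings, variance priors, weights, a replicate block and each library left out.

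Named are Wnt3 and the 2 largest called rises and falls among all tested transcripts, among those with a mean of at least 10 RPKM at both times, and among XR transcripts. Lists of Wnt signalling and of cell type markers could not be used, because 1 identifier has a name. The choice of this comparison, and its lists and rules, were made with earlier results of these data known.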

Additional observations from a re-analysis of the deposited data

How the results depend on the processing

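Over 275 values of the 11 other named transcripts under alternatives, 11 lost the call, 10 of them in the fits of 4 libraries. None reversed, but a reversal was hardly possible. These transcripts were chosen for the largest changes, and most alternatives leave the log2 fold change as it is. The count of rises, 755, was 1295 with median-ratio scaling, 1238 with quantile normalization, 379 with weights per library, 146 in the fit of only the 4 libraries of 48 h and 0 h, and 2 in that fit with no variance trend. The count of falls, 2443, was 1216, 1174, 1501, 377 and 6 under the same settings and 1588 with a pseudocount of 5. Leaving out 1 library gave 501 (without 0 h replicate 2) to 890 rises and 1844 (without 0 h replicate 2) to 3100 (without 48 h replicate 1) falls. A lone remaining library was assumed to vary like the other times. The rise of Wnt3, 1.87, is the same in both fits of 4 libraries by construction, because it is the difference of the same group means. Its limma adjusted p was 0.0640 and, in the fit with no variance trend, 0.0773. That last fit, with 2 residual degrees of freedom, and a mean of at least 10 RPKM (564 rises, 1701 falls) were chosen after seeing the data. The causes of these shifts were not tested.

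The median change from 2 h to 12 h was 0.79 for the rises with a pseudocount of 0.1, and for the falls −0.53 with a pseudocount of 5, −0.51 with median-ratio scaling and −0.53 with quantile normalization. The mean share of falls at least 2-fold lower in the other library pair was 42.7% with median-ratio scaling, and the XR transcripts that fell then numbered 27. With the replicate number as a block, rises numbered 724 and falls 2391, and the adjusted p of Wnt3 was 0.00313. Deviations of same-numbered libraries correlated with r of −0.0976 to 0.234 over 15 pairs of times, above 0.1 in 1 of them and above 0 in 7, and with 0.0390 between 48 h and 0 h. Low correlations cannot show that same-numbered libraries shared no day or preparation, which the labels do not give.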

Other observations

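A few transcripts moved one way between 2 h and 12 h and ended on the other side. Of the 755 transcripts higher at 48 h than at 0 h, 14 (1.85%) were called lower at 12 h than at 2 h, beside 6.58% of all tested transcripts. Of the 2443 lower at 48 h, 23 (0.941%) were called higher at 12 h than at 2 h, beside 4.07% of all. With median-ratio scaling these numbers were 21 of 1295 (1.62%), beside 4% of all, and 11 of 1216 (0.905%), beside 5.9% of all. All 4 shares lie below those of all tested transcripts. XR_181863.1 was not among them by the call, but its highest values, 6100 and 6091 RPKM at 6 h, stood beside 6.46 RPKM and a value listed at 0 at 48 h, and 58.1 and 284 RPKM at 0 h.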
